A study of Mus musculus with 8 samples.

Results

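Hepatocytes clear bile acids, sterols and drug conjugates through carriers on their opposite faces, and the transcripts of 10 such carriers were examined in the livers of mice given oxaliplatin. The genes were chosen by name (Slc10a1, Abcb11, Abcb4, Abcg5, Abcg8, Abcc2, Abcc3, Abcc4, Slc51a and Slc51b), through the gene name or the RefSeq accession that each array probe carries. They are 10 of the 21252 gene symbols named on the array and are covered by 24 of its 149782 non-control probes. Whole liver RNA of 8 male mice was hybridised to Agilent one-colour microarrays, 1 array per mouse. The 4 oxaliplatin mice were injected with the drug, a platinum agent given to patients with colorectal cancer, into the peritoneum each week over 6 weeks. This treatment models sinusoidal obstruction syndrome, in which the hepatic sinusoids are damaged and blocked. The 4 control mice are described as normal or control animals. Neither strain nor age was stated for either group in the sources used here.

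As background, bile acids enter the hepatocyte from sinusoidal blood mainly through the sodium-coupled carrier NTCP (Slc10a1) and leave it across the canalicular membrane through the bile salt export pump (Abcb11). Phosphatidylcholine (Abcb4), sterols (the Abcg5 and Abcg8 heterodimer) and bilirubin glucuronides and glutathione conjugates (Abcc2, or MRP2) follow the same canalicular route into bile. A second set of carriers, Abcc3 (MRP3), Abcc4 (MRP4) and the Slc51a and Slc51b heterodimer (OSTα and OSTβ), returns bile acids and conjugates across the sinusoidal face to the blood, and in cholestasis these carriers commonly increase in abundance. The bile acid receptor FXR (Nr1h4), the oxysterol receptors LXR and the xenobiotic sensors CAR, PXR and NRF2 are known to set the transcript levels of many of these genes.

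Several facts of the whole array set bear on every value that follows. Between 27.2% and 38.7% of probes gave a signal well above background on the oxaliplatin arrays, against 36.1% to 40.9% on the control arrays, and no member probe was saturated. Each slide held the arrays of 1 group, so slide and treatment cannot be told apart, and oxaliplatin replicates 1 and 2 carry a run name different from that of the other 6 arrays. Cdkn1a, a p53 target that platinum drugs commonly induce, was lower on the arrays labelled oxaliplatin (log2 difference -3.61 ± 0.66, limma adjusted p = 0.0117), and every direction here follows the labels. A level is the log2 signal less the 75th percentile of its array, group levels are means ± SD over n = 4 arrays, and a difference is oxaliplatin minus control with its SE. Adjusted p-values come from limma's moderated test with Benjamini-Hochberg adjustment over all 13913 genes tested, with a threshold of 0.05. For the brightest probe of each transporter tested, the exact two-sided permutation test over the 8 arrays is also given. The smallest p it can reach is 0.0286. In RNA from whole tissue, fewer cells of a type and less RNA per cell cannot be told apart.

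The probe that reads a transcript fixes what was measured, so the probes on which the results turn are shown here 5′ to 3′, as the files list them. The dimmer Slc10a1 probe lies at mm9 chr12:82061470-82061529 on the minus strand, and the Abcc3 probe at mm9 chr11:94225685-94225744 on the minus strand. The files give no position for the Slc51b probe.
Slc10a1, dimmer probe: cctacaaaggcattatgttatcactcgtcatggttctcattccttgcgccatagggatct
Abcc3, dimmest of 3 probes: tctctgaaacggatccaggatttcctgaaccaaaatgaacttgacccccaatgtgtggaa
Slc51b, brighter probe: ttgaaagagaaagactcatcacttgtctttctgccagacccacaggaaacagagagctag

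Of the 10 genes, 9 passed the filter on dim probes (4 or more of the 8 arrays well above background), and Slc51a did not. Among those 9, 4 were lower in oxaliplatin livers (Abcc2, Abcc3, Abcc4 and Slc51b), 0 were higher and 5 did not pass. Over all genes tested, 11.6% were called lower, 6.99% higher and 18.6% in either direction. The median log2 difference of the 9 genes was -0.51, against -0.09 over all genes tested, with 3 genes above 0 and 6 below. The arrays of the groups did not overlap for 3 of the 9 genes (Slc10a1, Abcc2 and Abcc3), a share near the 27.6% of all genes with groups that did not overlap. Of these, Slc10a1 lay higher on the oxaliplatin arrays, as did 9.26% of all genes, and Abcc2 and Abcc3 lay lower, as did 18.4%. These counts use the brightest probe of each gene, and the other Slc10a1 probe lay wholly below the control arrays. The 4 called genes kept their direction under all 22 alternative treatments of the data, whereas their calls held in 15 (Abcc2), 15 (Abcc3), 10 (Abcc4) and 9 (Slc51b) of the 22. The changed filters, the other variance model, the test of every probe and the replicate block left these differences as they were. Under those settings the direction could not change.

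**Figure D1:**
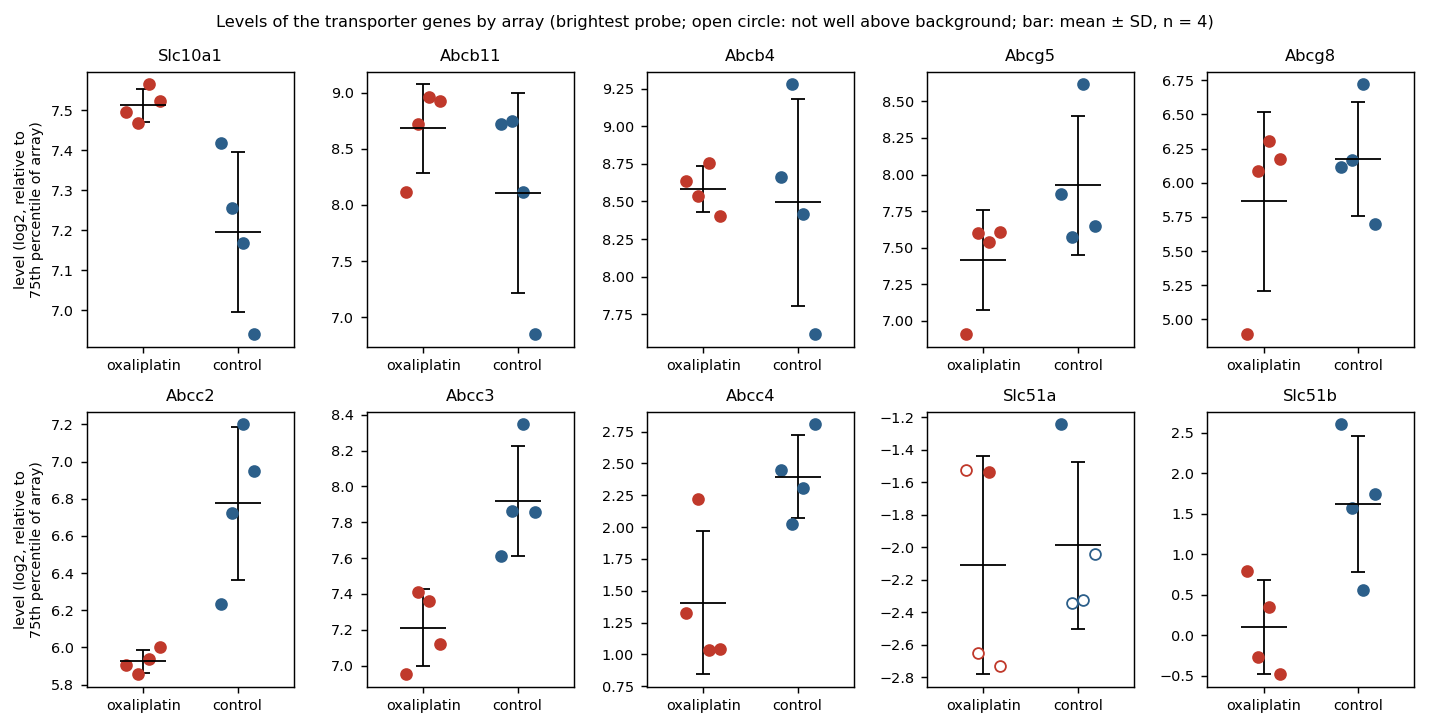
Level of each transporter on every array (log2 signal relative to the array's 75th percentile), oxaliplatin livers left and control livers right, 4 arrays each, with the mean and SD as bars; each panel has its own vertical scale. Abcc2 and Abcc3 lie wholly below the control arrays in oxaliplatin livers, Slc10a1 wholly above, and the remaining genes overlap. Each panel draws the brightest probe of its gene, and the other Slc10a1 probe lies wholly below the control arrays.

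Among the carriers that return substrates to the blood, Abcc3 had levels of 6.95, 7.41, 7.36 and 7.12 in oxaliplatin livers, against 7.61, 7.86, 8.35 and 7.86 in control livers. Every oxaliplatin array lay below every control array. The means were 7.21 ± 0.21 and 7.92 ± 0.31 in oxaliplatin and control livers, a difference of -0.71 ± 0.18 (limma adjusted p = 0.0299; exact permutation p = 0.0286), so that the control signal was 1.63-fold that of oxaliplatin livers. MRP3 exports glucuronides and some bile acids. The other probes of the gene gave differences of -0.69 and -0.68 (limma adjusted p = 0.0365 and 0.0293 over all probes), also with no overlap between the groups, and the last is from the probe printed above. The 3 probes gave differences within their SE of each other.

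Abcc4 encodes MRP4, which carries bile acids together with glutathione and also exports cyclic nucleotides. Its brightest probe had levels of 1.33, 2.22, 1.03 and 1.04 in oxaliplatin livers, against 2.45, 2.02, 2.30 and 2.81 in control livers. Oxaliplatin replicate 2 stood above the lowest control array, and the other oxaliplatin arrays lay below all controls. The mean levels were 1.41 ± 0.56 in oxaliplatin livers and 2.39 ± 0.33 in control livers, a difference of -0.99 ± 0.28 (limma adjusted p = 0.0452; exact permutation p = 0.0571). The control signal was 1.99-fold that of oxaliplatin livers. A dimmer Abcc4 probe, above background on 1 oxaliplatin and 3 control arrays, differed by 0.21 (limma adjusted p = 0.626 over all probes), and another was below background on all arrays. The lower level therefore rests on 1 probe of the gene.

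Slc51b, the β subunit of the organic solute transporter, had levels of 0.79, -0.27, 0.35 and -0.48 in oxaliplatin livers, against 2.60, 1.57, 0.56 and 1.74 in control livers. Control replicate 3 fell within the oxaliplatin range, and the other control arrays stood above it. The means were 0.10 ± 0.58 and 1.62 ± 0.84 in oxaliplatin and control livers, a difference of -1.52 ± 0.44 (limma adjusted p = 0.0453; exact permutation p = 0.0571), a control signal 2.87-fold that of oxaliplatin livers. The second probe of Slc51b had levels of 0.13, -0.52, -0.49 and -1.21 in oxaliplatin livers, against 1.58, 0.31, -0.58 and 0.62 in control livers. Its difference of -1.004 ± 0.44 had the same sign but did not pass (limma adjusted p = 0.140 over all probes). Its partner Slc51a was barely measurable: the brighter of its probes stood above background on 1 oxaliplatin array (replicate 3) and 1 control array (replicate 1), and the other on none. Whether both subunits of the heterodimer changed alike could therefore not be tested.

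Of the canalicular exporters, Abcc2 differed between the groups. Its levels were 5.91, 5.86, 5.94 and 6.00 in oxaliplatin livers, against 6.23, 6.72, 7.20 and 6.95 in control livers. The oxaliplatin arrays stood close together and below all control arrays. The means were 5.93 ± 0.06 and 6.78 ± 0.41 in oxaliplatin and control livers, a difference of -0.85 ± 0.19 (limma adjusted p = 0.0221; exact permutation p = 0.0286), and the control signal was 1.80-fold that of oxaliplatin livers. The second Abcc2 probe had levels of 5.82, 5.94, 6.13 and 5.99 in oxaliplatin livers and 6.15, 6.36, 6.83 and 6.26 in control livers. These did not overlap either, but the difference of -0.43 ± 0.16 did not pass (limma adjusted p = 0.0909 over all probes).

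Transcripts of the main bile acid and phospholipid exporters did not pass the test. Abcb11 had levels of 8.11, 8.72, 8.96 and 8.93 in oxaliplatin livers, against 8.72, 8.75, 8.12 and 6.85 in control livers, a difference of 0.57 ± 0.42 (limma adjusted p = 0.354). Control replicate 4 was the lowest array and widened the control spread to an SD of 0.89; without it the difference was 0.15. Abcb4, the phosphatidylcholine floppase, had levels of 8.64, 8.54, 8.76 and 8.40 in oxaliplatin livers, against 8.67, 9.28, 8.41 and 7.62 in control livers, a difference of 0.09 ± 0.31 (limma adjusted p = 0.861). Control replicate 4 was again the lowest array, and the oxaliplatin arrays lay inside the control range. The exact permutation p was 0.286 for Abcb11 and 0.771 for Abcb4. The other probes of Abcb4 differed by 0.17 and -0.15, and the second Abcb11 probe by 0.58, none of which passed.

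The sterol exporters Abcg5 and Abcg8 are each inactive without the other. Abcg5 had levels of 6.91, 7.60, 7.54 and 7.61 in oxaliplatin livers, against 7.87, 7.58, 8.62 and 7.65 in control livers, a difference of -0.51 ± 0.26 (limma adjusted p = 0.190), which was -0.28 without control replicate 3. Abcg8 had levels of 4.89, 6.08, 6.31 and 6.17 in oxaliplatin livers, against 6.12, 6.17, 6.72 and 5.70 in control livers, a difference of -0.31 ± 0.34 (limma adjusted p = 0.540). The exact permutation p was 0.0857 for Abcg5 and 0.543 for Abcg8. Oxaliplatin replicate 1 was the lowest array for both genes, and the groups overlapped. The within-array log2 ratio of Abcg5 to Abcg8 averaged 1.55 ± 0.33 in oxaliplatin livers and 1.75 ± 0.24 in control livers, and this difference of -0.20 did not pass (exact two-sided permutation p = 0.4). Other probes gave -0.33 for Abcg5 and -0.26 and -1.05 for Abcg8, the last from a probe above background on 1 oxaliplatin and 4 control arrays; none passed.

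The importer Slc10a1 gave opposite results at its 2 probes. The brighter probe had levels of 7.50, 7.47, 7.56 and 7.52 in oxaliplatin livers, against 7.42, 7.26, 7.17 and 6.94 in control livers. Every oxaliplatin array lay above every control array, but the difference of 0.32 ± 0.11 did not pass (limma adjusted p = 0.0853; exact permutation p = 0.0286). The dimmer probe, whose sequence is printed above, had levels of 6.20, 6.18, 5.97 and 6.12 in oxaliplatin livers, against 6.82, 7.24, 6.86 and 6.40 in control livers. Here every oxaliplatin array lay below every control array, with a difference of -0.71 ± 0.17 (limma adjusted p = 0.0261 over all probes). The scanner files list 2 RefSeq transcripts for the dimmer probe and 1, shared with it, for the brighter probe; no genome was used here to place the probes on the transcripts.

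**Figure D2:**
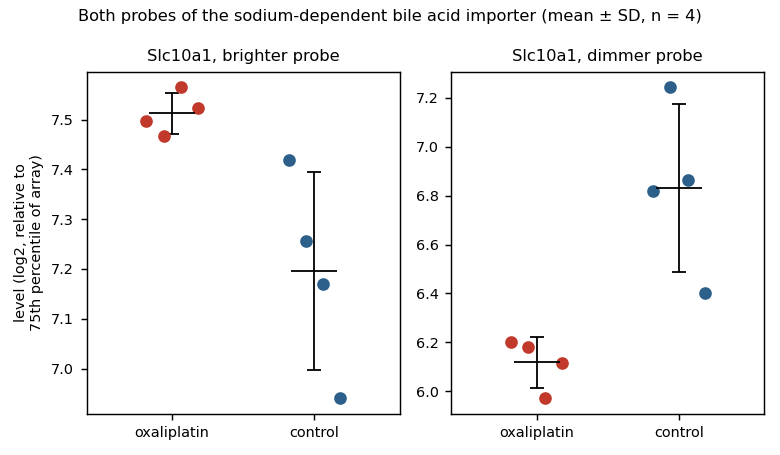
Levels of both Slc10a1 probes on each array (log2 signal relative to the array's 75th percentile), oxaliplatin arrays left of control arrays. At the brighter probe the oxaliplatin arrays average 7.51 and the control arrays 7.20; at the dimmer probe they average 6.12 and 6.83.

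The contrast between these probes was then tested within arrays, a test added after the values had been seen and made for all 15 pairs in which both probes of a gene passed the filter. The log2 ratio of the dimmer to the brighter Slc10a1 probe averaged -1.40 ± 0.14 in oxaliplatin livers and -0.37 ± 0.27 in control livers, a difference of -1.03 (exact two-sided permutation p = 0.0286, adjusted p = 0.0857 over the 15 pairs). This did not pass after adjustment, since the design cannot go below 0.0286 for any pair, a value that 5 of the 15 pairs reached. The Slc10a1 p-value was fixed by the levels above, since the groups separated in opposite directions at its 2 probes. It adds no evidence to them. For Slc51b, whose dimmer probe was above background on 3 of the 4 oxaliplatin arrays, the same ratio differed by 0.52 (exact permutation p = 0.0286, adjusted p = 0.0857). The Abcc4 pair is among the 5, but its dimmer probe was below background on most oxaliplatin arrays and its ratio is not read here. The remaining pairs among the 5 set the dimmest Abcb4 probe, above background on all 8 arrays, against each of the other Abcb4 probes. Their ratios differed by -0.24 and -0.33 (exact permutation p = 0.0286, adjusted p = 0.0857 for each). The pairs of Abcc3 probes differed by 0.01 to 0.03. Neighbouring probes of Abcb11, Abcb4 and Abcg5 share runs of 35, 26 and 49 bases and so do not read independent stretches of the transcript.

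**Figure D3:**
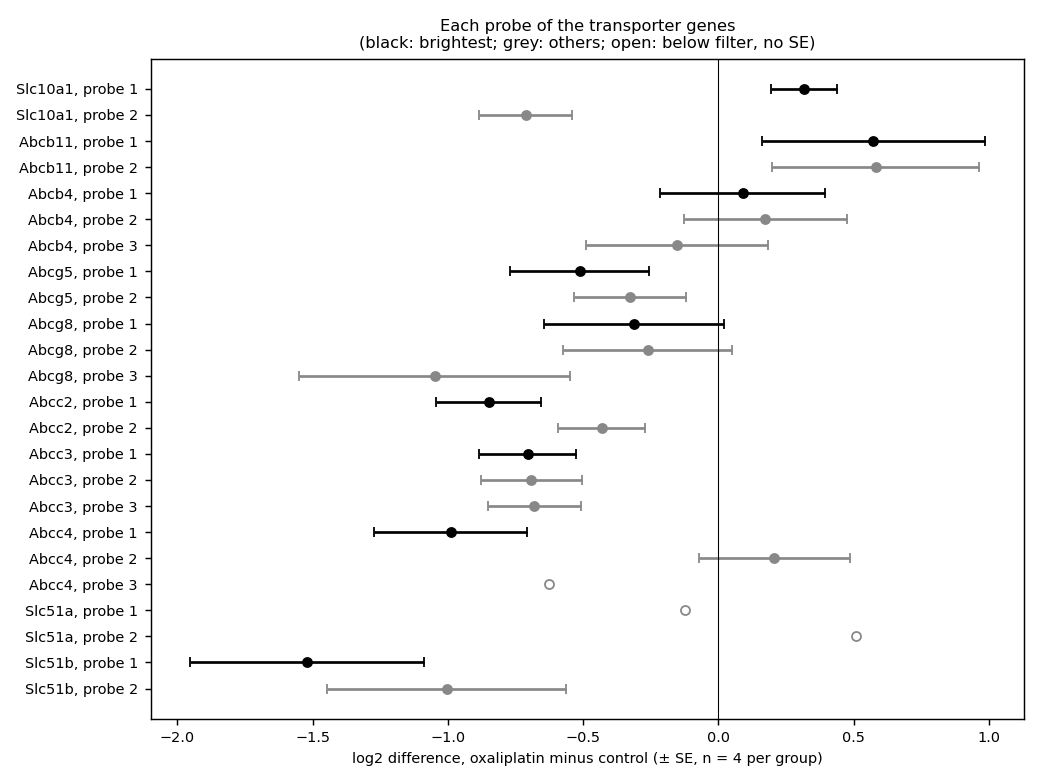
Difference between oxaliplatin and control livers (log2, oxaliplatin minus control) for the probes of the 10 genes, with SE as bars; black marks the brightest probe of a gene and open circles mark probes below the filter, which have no SE. Of the 21 probes that passed the filter, 15 lie below 0, the 3 Abcc3 probes lie close together, and the Slc10a1 probes lie on opposite sides of 0.

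Across all 24 probes, 21 passed the filter, and 15 of these had a lower mean in oxaliplatin livers. With adjustment over all probes, 7 were called lower and 0 higher. All the Abcc3 probes are among the 7, and probes of the same gene are not separate observations. The share of all probes on the array that were called is not given here, so these counts only describe the member probes. The files place 14 of the 24 probes on mm9. The mapped Abcc2 probe covers chromosome 19 from 43912079 to 43912138 on the plus strand, and the mapped Slc51b probe covers chromosome 9 from 65260705 to 65260764 on the minus strand. No exon annotation of mm9 was used here.

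The promoters of the called genes are shown because the list of nuclear receptors and regulators that follows holds receptors known to act on many transporter genes. Whether those receptors acted on the called genes here was not tested. Each stretch covers 250 bases before a RefSeq transcription start (GRCm38.p6), 5′ to 3′ on the gene's strand. Capitals mark matches on either strand to AGGTCA, the nuclear receptor half-site, or to TGACNNNGC, the core of the antioxidant response element. No Abcc3 entry was matched.
Abcc2, chr19:43782058-43782307, plus strand: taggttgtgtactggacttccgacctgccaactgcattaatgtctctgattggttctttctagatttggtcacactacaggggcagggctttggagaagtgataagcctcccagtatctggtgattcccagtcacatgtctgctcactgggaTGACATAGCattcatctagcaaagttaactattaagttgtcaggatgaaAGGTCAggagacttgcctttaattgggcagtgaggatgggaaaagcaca
Abcc4, first start, chr14:118706220-118706469, minus strand: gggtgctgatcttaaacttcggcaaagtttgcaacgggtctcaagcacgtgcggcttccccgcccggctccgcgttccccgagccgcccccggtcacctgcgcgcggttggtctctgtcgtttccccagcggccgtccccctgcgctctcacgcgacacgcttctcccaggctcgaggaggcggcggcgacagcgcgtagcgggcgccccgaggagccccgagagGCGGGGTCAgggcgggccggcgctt
Abcc4, second start, chr14:118676932-118677181, minus strand: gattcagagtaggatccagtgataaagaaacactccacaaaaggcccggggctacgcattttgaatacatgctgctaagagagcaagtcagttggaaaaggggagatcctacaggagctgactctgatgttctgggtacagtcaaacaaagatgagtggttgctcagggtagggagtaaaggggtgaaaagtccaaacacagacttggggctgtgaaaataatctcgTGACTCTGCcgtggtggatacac
Slc51b, chr9:65422774-65423023, minus strand: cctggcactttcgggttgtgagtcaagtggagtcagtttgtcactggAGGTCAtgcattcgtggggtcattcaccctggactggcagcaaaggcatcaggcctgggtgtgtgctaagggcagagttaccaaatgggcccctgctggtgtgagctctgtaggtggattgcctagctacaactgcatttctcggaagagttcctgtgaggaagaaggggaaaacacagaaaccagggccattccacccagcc

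Across the 9 member genes matched in the promoter table, 12 windows were available. AGGTCA occurred in 5 of the 12 windows (those of Abcb11, Abcc2, Slc10a1, Slc51a and Slc51b), against 14.0% of 32851 promoters of the same length. TGACNNNGC occurred in 3 of the 12 (Abcc2 and both Abcc4 starts), against 10.2% of promoters. The inverted repeat AGGTCANTGACCT, which contains the half-site and is the arrangement FXR is known to prefer, occurred in 0 of the 12 and in 0.00609% of promoters, and GTTAAT, a half-site of HNF1, in 0 of the 12 and in 6.43% of promoters. Abcc2 was the member whose window held both of the motifs marked in capitals. A match of these letters describes the sequence and does not show a bound site.

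Genes that set or accompany transporter levels were counted from lists chosen with earlier results of these data known. For comparison, 11.6% of all genes tested were called lower, 6.99% higher and 18.6% in either direction. Of 13 nuclear receptor and regulator genes tested, 1 fell, 0 rose and 12 did not pass, with a median difference of -0.00, and with the first run name alone 0 fell. The share that fell was below that of all genes. The gene that fell was Nr1i3, which encodes CAR, a xenobiotic receptor known in mouse liver to act on Abcc2, Abcc3 and Abcc4; its mean level was 5.77 in oxaliplatin livers and 6.65 in control livers, a difference of -0.88 ± 0.16 (limma adjusted p = 0.0109). Nr1h4, the FXR gene, differed by 0.05 (limma adjusted p = 0.850). Its target Nr0b2, the repressor SHP, differed by 1.07 ± 0.41 (limma adjusted p = 0.101), Ppara by 1.01 (0.0725) and Ahr by -0.57 (0.0588), none of which passed.

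Of 13 targets of NRF2 and CAR, 5 fell, 0 rose and 8 did not pass, with a median difference of -0.45; with the run name as a term 3 fell, and with the first run name alone 2. Nqo1, a quinone reductase, fell by 2.89 ± 0.36 (limma adjusted p = 0.00375). The cytochrome Cyp2b9 fell by 3.95 ± 0.56 (limma adjusted p = 0.00533), and Cyp2b10, the standard CAR target, fell by 3.08 ± 0.49 (limma adjusted p = 0.00782). Cyp2b9 and Cyp2b10 belong to a family of near-identical genes, and their probes may share signal. Gsr, glutathione reductase, fell by 0.81 ± 0.15, and Srxn1, sulfiredoxin, fell by 1.17 ± 0.28 (limma adjusted p = 0.0133 and 0.0269). These 5 targets are named because they were called lower, as were the 4 transporters, so their shared direction follows from that choice. Of the 13 targets, 4 had differences above 0 and 9 below. No test links the targets to the transporters.

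Of 15 genes of bile acid synthesis and conjugation, 1 rose, 1 fell and 13 did not pass, with a median of 0.00; neither share exceeded that of all genes, and 0 were called in either direction with the first run name alone. Cyp7b1, the oxysterol 7α-hydroxylase of the alternative pathway, rose by 1.87 ± 0.40 to 8.01 in oxaliplatin livers, against 6.14 in control livers (limma adjusted p = 0.0190). Cyp39a1, a 24-hydroxycholesterol 7α-hydroxylase, fell to 3.62 in oxaliplatin livers, against 5.03 in control livers (difference -1.40 ± 0.27, limma adjusted p = 0.0138). Cyp7a1, the rate-limiting enzyme of the classical pathway, differed by -0.42 (limma adjusted p = 0.498). Cyp8b1, which sets the cholic acid share, and Cyp27a1, the sterol 27-hydroxylase, differed by 1.39 and 0.45 without passing (limma adjusted p = 0.0887 and 0.0732).

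Other bile acid and canalicular transporters numbered 17, of which 2 rose, 1 fell and 14 did not pass, with a median of 0.13. The share called in either direction was near the 18.6% of all genes. Quantile scaling left 1 higher and 0 lower, and the first run name alone left 0 in either direction. Slco1a1, a sinusoidal organic anion importer, rose by 5.95 ± 1.11 (limma adjusted p = 0.0126), and its probe was above background on 3 of the 4 control arrays. Slc22a7, the organic anion carrier OAT2, rose by 3.42 ± 1.01 (limma adjusted p = 0.0491). Its control levels ran from -0.45 to 4.65, and its call held in 9 of the 22 alternatives. Slco1a4, a related importer, fell by 1.17 ± 0.35 (limma adjusted p = 0.0499), whereas Slco2b1 differed by -0.31 without passing. The Slco1a4 call held in 10 of the 22 alternatives. 

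Among 11 genes that anchor or deliver canalicular carriers, 2 fell and 9 did not pass, with a median of -0.18. The share that fell was above the 11.6% of all genes called lower, and near the 18.6% called in either direction. The count that fell was 0 by the mean over probes, with the run name as a term and without oxaliplatin replicate 3, oxaliplatin replicate 4 or control replicate 3. Vipas39, a partner of the trafficking factor VPS33B, fell by 0.42 ± 0.09, and Rab11a, a recycling endosome GTPase, by 0.45 ± 0.10 (limma adjusted p = 0.0204 and 0.0242). Rdx, radixin, which tethers MRP2 to the canalicular cytoskeleton, and Slc9a3r1, the scaffold EBP50, differed by 0.48 and -0.34 without passing. Of 13 sterol handling and LXR target genes, 1 rose (Mylip, an E3 ubiquitin ligase induced by LXR, 0.43 ± 0.10, limma adjusted p = 0.0223), 1 fell (Stard4, a sterol carrier, by 0.61 ± 0.16, limma adjusted p = 0.0339) and 11 did not pass; with the run name as a term 0 were called in either direction. The share of these sterol genes called in either direction was below the 18.6% of all genes. Abca1, a cholesterol exporter and standard LXR target, and Nceh1, a cholesteryl ester hydrolase, differed by -0.42 and 1.01 (limma adjusted p = 0.267 and 0.0543), and neither passed.

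**Figure D4:**
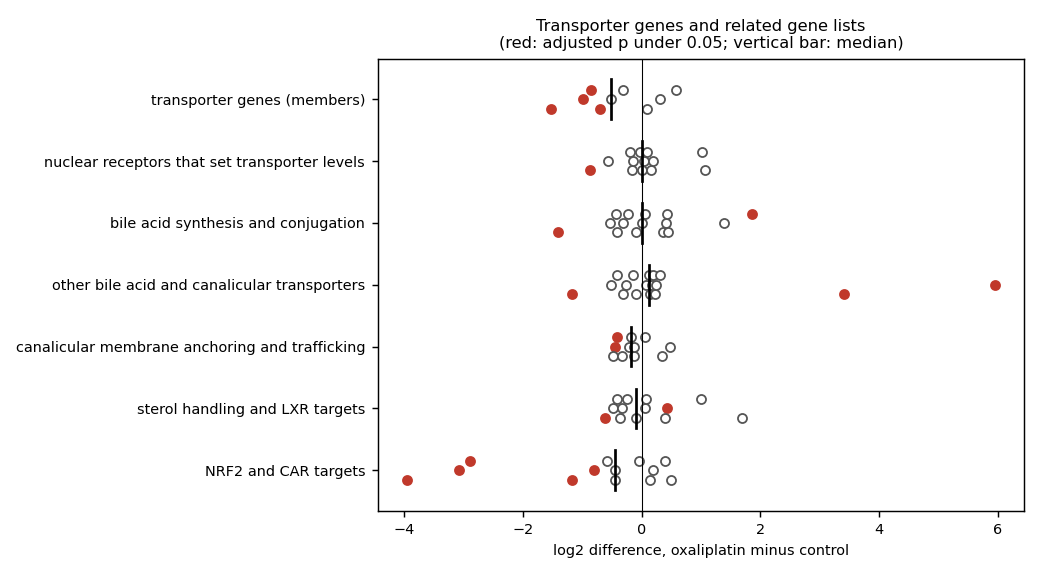
Difference between oxaliplatin and control livers (log2, oxaliplatin minus control) for each tested gene of the transporters and of the related lists, each point a gene, with called genes in red and the median of each list as a bar. The median lies at -0.51 for the transporters and at -0.45 for the NRF2 and CAR targets, and near 0 for the nuclear receptors and bile acid synthesis. It lies at -0.18 for the anchoring genes, -0.09 for the sterol genes and 0.13 for the other transporters.

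Cell type markers were read beside the transporter values. Hepatocyte markers were abundant on all arrays, with summed levels of 8496 to 9352 in oxaliplatin livers and 7651 to 7964 in control livers (linear signal relative to the 75th percentile), and 2 of 7 rose, among them Alb, by 0.56 ± 0.08 (limma adjusted p = 0.00708). Of 8 cholangiocyte markers 0 were called in either direction, with summed levels of 57.8 to 114 and 54.2 to 95.5 in oxaliplatin and control livers; Krt19 differed by 0.28 (limma adjusted p = 0.515) and Cftr was below the filter. Of 6 markers of the ileal enterocyte, a cell rich in Slc51a and Slc51b, Fabp6 and Vil1 were below the filter, Fabp2 and Slc10a2 were above background on all arrays and did not pass, Lct rose by 3.01 ± 0.19 (limma adjusted p = 0.000889) and Apoa4, which hepatocytes also express, fell by 1.35 ± 0.23 (limma adjusted p = 0.00990). The summed levels of the 4 tested were 543 to 741 in oxaliplatin livers and 890 to 1628 in control livers. Apoa4, with mean levels of 8.70 in oxaliplatin and 10.05 in control livers, made up most of each sum. Of these 4 markers, 2 had differences above 0 and 2 below. Of 7 sinusoidal endothelial markers 1 fell, the hyaluronan receptor Lyve1, by 1.49 ± 0.26 (limma adjusted p = 0.00993), with summed levels of 361 to 471 in oxaliplatin livers and 388 to 460 in control livers. The other 6 endothelial markers did not pass. Of the 7, 3 had differences above 0 and 4 below, with a median of -0.0003. Of 6 Kupffer cell markers 1 fell, the scavenger receptor Marco, by 2.26 ± 0.63 (limma adjusted p = 0.0406), with summed levels of 355 to 877 in oxaliplatin livers and 516 to 1056 in control livers. The other 5 Kupffer cell markers had differences above 0 without passing, and the median of the 6 was 0.50. Among them, Clec4f and Vsig4 differed by 0.59 and 0.65 (limma adjusted p = 0.0623 and 0.0711), with no overlap between the groups. Of 6 stellate cell markers 1 fell, the proteoglycan Dcn, by 0.39 ± 0.10 (limma adjusted p = 0.0365), with summed levels of 328 to 375 in oxaliplatin livers and 363 to 474 in control livers. Dcn, with mean levels of 8.09 in oxaliplatin and 8.48 in control livers, made up most of each sum. Of these 6 markers, 2 had differences above 0 and 4 below, with a median of -0.13. Of 6 red blood cell markers 4 rose, with summed levels of 1958 to 3929 in oxaliplatin livers and 455 to 2349 in control livers. The part of these cell types in the transporter differences was not tested.

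The direction of the called genes under other settings is shown last. The difference ranged from -1.48 to -0.64 for Abcc2, from -1.33 to -0.56 for Abcc3, from -1.62 to -0.39 for Abcc4 and from -2.15 to -1.03 for Slc51b. Leaving out oxaliplatin replicate 3 or oxaliplatin replicate 4 left 0 of these genes called, and leaving out control replicate 3 left 1. With the run name as a term in the fit, Abcc4 alone of the 9 was called (difference -1.36, limma adjusted p = 0.0400), while Abcc2 differed by -0.80, Abcc3 by -0.67 and Slc51b by -1.68 without passing; the 6 arrays of the first run name, 2 of them oxaliplatin, gave the same differences. Under quantile scaling Abcc4 (-0.94) and Slc51b (-1.50) no longer passed (limma adjusted p = 0.0611 and 0.0581). By scaling to each array's median, Slc10a1, Abcb11 and Abcb4 had negative differences (-0.31, -0.054 and -0.54), a setting that moved the median of all genes to -0.71.

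**Figure D5:**
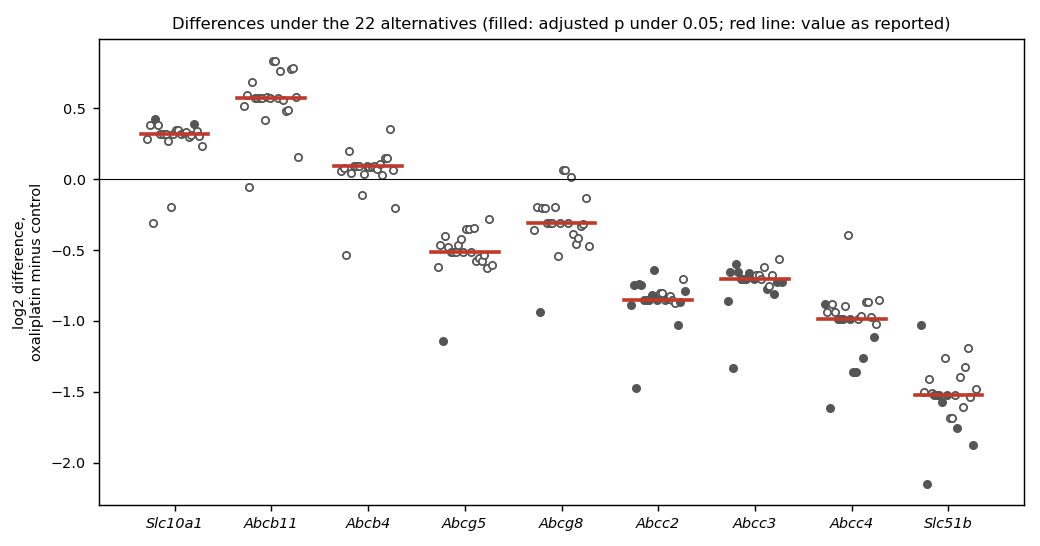
Difference (log2, oxaliplatin minus control) of each tested transporter as reported (red line) and under the 22 alternatives (points, filled where the gene was called). Abcc2, Abcc3, Abcc4 and Slc51b lie below 0 under every setting drawn, with their calls kept in 15, 15, 10 and 9 of the 22.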

How the data were processed

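Feature Extraction 12.0.3.1 quantified the scans, per the file headers; the submitters' processing notes give version 10.7 of Agilent Feature Extraction, and limma. The deposited processed signal and the mean and background signals are linear fluorescence intensity values; the processed signal had its background subtracted and had no scaling between arrays. Deposited flags of 0 or 1 mark spots above background, saturated or outlying. Log2 values of 46867 probes stand in the deposited series matrix, with a normalization not given in the sources used here; across probes, a description only, each column tracked the log2 processed signal of its array with r of at least 0.996, and its centring is unknown.

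From these files, log2 processed signal minus each array's 75th percentile over non-control probes was computed, and outlier spots were left out. Probes well above background on at least 4 of 8 arrays were kept (54636), and the brightest probe stood for its symbol, giving 13913 genes. Names came from the accession in a RefSeq table (GRCm38.p6): of 48257 probes with such an accession 47985 matched, and 145 catalogue probes kept the file's name. The test was limma 3.58.1 (lmFit, then eBayes; R 4.3.3) with Benjamini-Hochberg adjustment and a threshold of 0.05. Exact permutation tests used scipy 1.17.1. The members and lists were chosen with earlier results of these data known. The genes named are all members with every probe, the 4 smallest adjusted p-values of each list (or all that passed, up to 5), the 3 genes most like the member of smallest adjusted p, and Cyp7a1, Nr0b2, Nr1h4, Abca1, Alb and Krt19; Cdkn1a was added because it bears on the labels, and 1 gene that the rule picks is not reported here. Of 2 planned heterodimer ratios, 1 could be tested. On simulated data with 13903 genes, 70% of genes changed by 1 on the log2 scale and 82% of those changed by 2 were called, with 8 of 160 calls false. The number of arrays limits the precision.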

Additional observations from a re-analysis of the deposited data

Results flagged for a closer look

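In oxaliplatin replicate 1, both sterol exporters stood apart from the other 3 arrays of the group, by a test for a single outlying sample (Dixon's, at 95%). The Abcg5 level was 6.91 there, with the next array at 7.54, and the gap made up 0.90 of the group's range. The Abcg8 level was 4.89, with the next array at 6.08 (gap 0.843 of the range). A dimmer Abcg8 probe gave 0.46, with the next array at 1.49 (gap 0.864 of the range). Of 42 groups of 4 arrays examined, these 3 were picked out, and chance picks out about 1 in 20 groups; the 3 concern 1 animal and neighbouring genes that are known to be transcribed from a shared intergenic region. Without that replicate, the Abcg8 difference was 0.012 and the Abcg5 difference -0.34.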

How the results depend on the processing

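Under the alternatives run, the transporters called lower (4) numbered 2 by quantile scaling, by the percentile over detected probes, by the series matrix and by the mean over probes, 6 by median centring (Abcg5 and Abcg8 added), 1 with the run name as a term or with the first run alone, and 0 to 3 with an array left out; the transporters called higher (0) numbered 1 by the percentile over detected probes and 0 to 1 with an array left out. Over all genes, 973 were called higher, against 230 by median centring, 2782 without the filter, 451 with the run name as a term, 255 with the first run alone and 457 to 972 with an array left out; 1617 were called lower, against 2598 with normexp, 9688 by median centring, 935 by the percentile over detected probes, 469 with the run name, 260 with the first run and 558 to 1509 with an array left out. Same-numbered samples did not deviate together (correlations -0.322, -0.083, -0.092 and -0.227), and with the replicate number as a block 266 genes were higher, 263 lower and 0 transporters lower, and 2 NRF2 and CAR targets and 0 bile acid synthesis, anchoring or sterol genes were called. Quantile scaling gave 1120 genes higher and 1122 lower. The share of calls that were higher was 37.6%, against 20.6% with normexp, 2.32% by median centring, 60.5% by the percentile over detected probes, 49.3% in the series matrix and 67.6% without the filter. Median centring, which moved the median of all genes to -0.71, turned the sign of Slc10a1 (-0.31), Abcb11 (-0.054), Abcb4 (-0.54), Alb (-0.070), Cyp27a1 (-0.18), Krt19 (-0.35), Mylip (-0.20), Nr1h4 (-0.58) and Rdx (-0.14). Other changes of sign were Slc10a1 -0.20 and Slco2b1 0.10 by the mean over probes, Abcb4 -0.11 with array weights, Abcg8 0.064 with the run name as a term or with the first run alone, and Nr1h4 -0.031 with normexp. With an array left out, Abcb4 ran from -0.20 (without control replicate 4) to 0.35, Abcg8 from -0.47 to 0.012 (without oxaliplatin replicate 1) and Nr1h4 from -0.088 (without control replicate 1) to 0.14. The ratio of Abcg5 to Abcg8 (-0.20) was -0.26 by quantile scaling, 0.12 by the mean over probes and -0.36 to -0.09 with an array left out. The cause was not tested. Slide could not be fitted, since each held 1 group. Dim probes, among them those of Slc51a, limit what the arrays can show.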

Other observations

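Across the 8 arrays, the genes whose level was most like that of Abcc2 were Psma3, a proteasome subunit (Pearson r = 0.993), Tmpo, a nuclear lamina protein (r = 0.992), and Diablo, a mitochondrial protein released in apoptosis (r = 0.992). These values describe 8 arrays that span both groups, among 13913 genes, and carry no test. The differences of these genes were -0.38, -0.41 and -0.43.

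Probes named by a genomic interval overlap some of the carriers. On the strand opposite to Abcb11, a probe named for mm9 chromosome 2 from 69047145 to 69079880 had a level of -1.40 ± 0.88 in oxaliplatin livers and -0.18 ± 0.84 in control livers (exact two-sided permutation p = 0.114, n = 4 per group), and was above background on 2 oxaliplatin and 4 control arrays. A second such probe, named for 69050780 to 69082556, differed by -1.13 (exact permutation p = 0.143). On the strand of Abcc4, a probe named for chromosome 14 from 118883365 to 118883527 differed by -0.32 (exact permutation p = 0.0857) and was above background on 3 oxaliplatin and 4 control arrays, and none of these 3 p-values passed 0.05. A pair of further interval probes with the same start were above background on no array; their signals gave exact permutation p = 0.0286, with the higher signal in oxaliplatin livers, for the one that ends at 118889392, and p = 0.971 for the other, and signals below background give no level.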
